A study of Mus musculus with 12 samples.

Results

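The histone deacetylase family was described here through 10 of its zinc-dependent members, Hdac1 to Hdac10. These are 10 of the 28689 genes in the deposited expression table. They were taken by name, through the Ensembl identifiers of the table, with no threshold on a measured value. Expression had been measured by RNA-seq in mouse lung endothelial cells (MLECs), with 6 CTR libraries and 6 dKO libraries. The dKO mice carried floxed alleles of both transcription factors together with an inducible Cre (VE-CAD-CreERT2+ / Sp1 fl/fl / Sp3 fl/fl), and the CTR mice were littermates with the same floxed alleles and without the Cre (VE-CAD-CreERT2- / Sp1 fl/fl / Sp3 fl/fl), which the labels give as WT. Both groups received tamoxifen. The study's reporting summary describes its mice as males of 6 to 8 weeks, and its methods give adult mice for the isolation of MLECs. The Cre was driven by the VE-cadherin promoter, which is active in endothelial cells, and the cells were taken from lung with CD31 beads, grown to confluence and selected again with ICAM2 beads. How many mice stood behind a library is not given in the sources used here, so p-values measure the spread between libraries.

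Histone deacetylases remove acetyl groups from lysines of histones and of many other proteins, and removal from histones generally accompanies a more compact, less transcribed chromatin. The class I enzymes Hdac1, Hdac2, Hdac3 and Hdac8 are mostly nuclear, and all but Hdac8 work as the catalytic subunits of corepressor complexes. The class IIa enzymes Hdac4, Hdac5, Hdac7 and Hdac9 have little catalytic activity of their own, bind MEF2 transcription factors and move between nucleus and cytoplasm when kinases phosphorylate them. The class IIb enzymes Hdac6 and Hdac10 act largely in the cytoplasm, on tubulin and on acetylated polyamines. Sp1 and Sp3 bind GC boxes in promoters, are themselves acetylated and interact with HDAC1, and this gave the question asked of the data, namely whether the mRNA of the deacetylases differed between MLECs with and without the Cre.

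In dKO MLECs, 5 of the 10 deacetylases were lower than in CTR MLECs, namely Hdac1, Hdac2 and Hdac8 of class I and both class IIb enzymes, Hdac6 and Hdac10. Their mean levels were 17.04% to 41.5% lower. Among the class IIa genes none passed the test, and the low Hdac9 was not tested. Of the 9 members tested, 5 (55.6%) passed an adjusted p under 0.05 (limma on log2(FPKM + 1), Benjamini-Hochberg over 12467 genes), where 53.1% of all tested genes did, so the share of members called was close to the background. All 5 were lower, where 32.6% of tested genes were lower and 20.4% were higher. For 4 of the 5, Hdac10 being the exception, each dKO library was below each CTR library, as for 16.1% of all tested genes, and the groups lay apart in either direction for 27.4% of them. The members' median log2 fold change was -0.26, where the median over all tested genes was -0.10. The members were chosen with earlier results of these data known, so these shares are a description.

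Fragments assigned to genes numbered 16549824 to 17467059 in the CTR libraries and 15523054 to 17938286 in the dKO libraries. One fragment on a transcript of 2 kb was worth 0.0279 to 0.0322 FPKM, a level scaled for transcript length and library total. The targeted genes came first. Sp1 lay between 19.4 and 23.7 FPKM in CTR (median 20.7) and between 8.42 and 12.1 in dKO (median 11.0), a log2 fold change of -0.95 (SE 0.091, adjusted p = 5.68e-06, limma with Benjamini-Hochberg), with no overlap of the groups. Sp3 lay between 24.2 and 31.1 FPKM in CTR (median 27.7) and between 22.5 and 26.9 in dKO (median 25.3), where only 2 of the 6 dKO libraries were below every CTR library. Its log2 fold change of -0.14 (SE 0.067, adjusted p = 0.0902, limma) did not pass the threshold, so the labels were checked by Sp1 alone. FPKM are computed over the whole gene and do not resolve the deleted part.

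Endothelial markers were present in every library, at summed levels below those of macrophage and of fibroblast markers, and several of the lists moved with genotype. Of all tested genes, 20.4% were higher and 32.6% lower in dKO. All 10 macrophage markers were higher in dKO, and their summed level was 711 to 1244 FPKM in CTR and 2373 to 5285 in dKO. Of the 12 endothelial markers 11 were higher (summed 221 to 344 FPKM in CTR and 403 to 550 in dKO), as were the 3 leukocyte markers that passed the filter of 10 listed (3.36 to 6.09 and 12.2 to 25.5). Each of these 3 leukocyte markers fell under 1 FPKM in CTR (lowest 0.589 to 0.983) and was above it in every dKO library. They passed the filter of 1 FPKM in 6 libraries only with dKO libraries counted, so the filter favoured their direction. Of 7 fibroblast markers tested 3 were lower and 1 was higher, and their sum was 2128 to 2710 FPKM in CTR and 829 to 1662 in dKO. Of 8 proliferation markers 4 were lower (87.9 to 258 and 88.4 to 121). In the remaining lists, 2 of 4 lymphatic endothelial, 1 of 3 smooth muscle and 3 of 8 lung epithelial markers were higher, and of 5 pericyte markers 1 was higher and 1 lower. The lymphatic Prox1 and the pericyte Rgs5, counted here as higher, also fell under 1 FPKM in CTR (lowest 0.735 and 0.391). Both passed the filter only with dKO libraries counted. None of the retina markers was above the filter, and no marker in the table was at 0 in all libraries. In such bulk libraries fewer cells of a type and less RNA per cell cannot be told apart, and the part of these shifts in the values of the deacetylases was not tested.

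**Figure D1:**
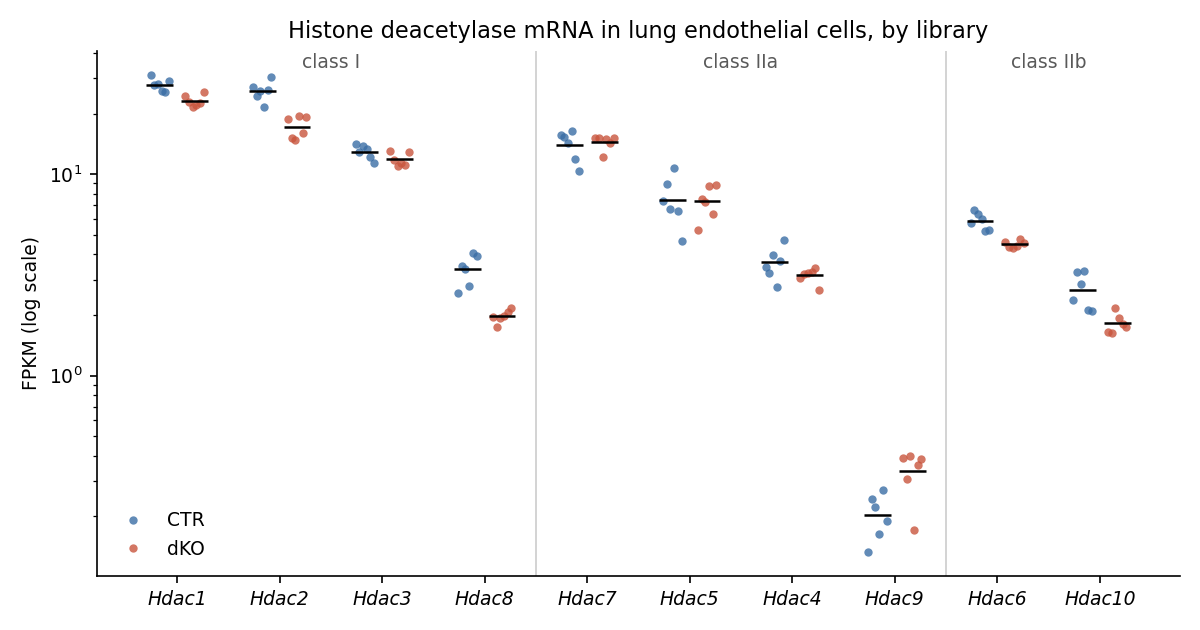
FPKM of each deacetylase (vertical axis, log scale) in every library, CTR in blue and dKO in red, with a black line at the group mean of 6 libraries and the classes separated by grey lines. All dKO points lie below all CTR points for Hdac1, Hdac2, Hdac8 and Hdac6, while Hdac9 lies at 0.396 FPKM or lower throughout.

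The promoters of 4 members are shown because Sp1 and Sp3 bind the GC box, searched here as GGGCGG or its reverse complement CCGCCC on both strands. They are Hdac1, Hdac2 with the lowest log2 fold change in the reported fit, Hdac7 with the highest although no member was called higher, and Hdac4 with the most boxes. Each line gives the 250 bases before the start of the Ensembl canonical transcript (GENCODE annotation of GRCm39), read 5′ to 3′ on the gene's strand. GC boxes that lie wholly within these bases are in capitals. A box of Hdac4 with its first base at -4 crosses the start and is not marked. Their positions are chr4:129436512-129436761 (minus strand) for Hdac1, chr10:36850185-36850434 (plus) for Hdac2, chr15:97729654-97729903 (minus) for Hdac7 and chr1:92108064-92108313 (minus) for Hdac4.
Hdac1: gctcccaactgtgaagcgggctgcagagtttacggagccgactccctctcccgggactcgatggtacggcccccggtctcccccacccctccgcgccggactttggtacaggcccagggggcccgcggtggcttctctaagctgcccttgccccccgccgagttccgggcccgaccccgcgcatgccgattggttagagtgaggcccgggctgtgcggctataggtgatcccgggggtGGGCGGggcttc
Hdac2: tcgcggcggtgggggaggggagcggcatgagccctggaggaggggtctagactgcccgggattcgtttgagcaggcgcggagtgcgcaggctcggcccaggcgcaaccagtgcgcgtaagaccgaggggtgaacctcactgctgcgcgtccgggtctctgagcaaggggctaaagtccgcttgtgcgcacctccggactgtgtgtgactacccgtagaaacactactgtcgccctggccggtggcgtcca
Hdac7: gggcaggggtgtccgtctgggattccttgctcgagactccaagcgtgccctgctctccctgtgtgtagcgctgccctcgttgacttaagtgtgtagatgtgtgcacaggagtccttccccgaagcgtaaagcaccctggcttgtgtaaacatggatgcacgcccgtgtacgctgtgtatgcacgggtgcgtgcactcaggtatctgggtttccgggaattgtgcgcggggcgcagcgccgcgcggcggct
Hdac4: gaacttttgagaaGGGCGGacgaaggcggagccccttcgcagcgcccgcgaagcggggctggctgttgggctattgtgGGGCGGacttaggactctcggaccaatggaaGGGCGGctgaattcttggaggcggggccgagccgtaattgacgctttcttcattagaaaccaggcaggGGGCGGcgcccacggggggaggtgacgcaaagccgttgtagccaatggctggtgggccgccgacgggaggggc

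In the window of 300 bases from 250 before to 50 after the start, 5 of the 10 members (50%) held a GC box, where 50.7% of 17366 promoters did. Among the 11315 promoters of tested genes the share was 59.6%. Hdac4 held 5, Hdac6 held 4, Hdac1 held 2, and Hdac3 and Hdac5 held 1 each. The others held none, and they include Hdac2, Hdac8 and Hdac10, which were lower, as well as Hdac7 and Hdac9. A count of 5 or more boxes was found in 3.89% of promoters. The share with a box was 60.0% among promoters of genes lower in dKO, 56.6% among those higher and 60.7% among those not called. Only the canonical start of each gene was searched, so boxes at other starts of a gene are not counted. A match of these letters is a description of the window and not of binding.

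Among the class I enzymes, Hdac1 had the highest level of the family in both groups. Its CTR libraries held 25.8 to 31.3 FPKM (median 27.9, mean 27.9 ± 2.07 SD, n = 6) and its dKO libraries 21.5 to 25.5 (median 22.8, mean 23.2 ± 1.52 SD, n = 6). Every dKO library was below every CTR library. The mean was 17.04% lower in dKO, with a log2 fold change of -0.26 (SE 0.064, 95% interval -0.40 to -0.12, adjusted p = 0.0044, limma with Benjamini-Hochberg). This was the smallest change among the 5 called members, and 31.7% of all tested genes had a lower log2 fold change. With median-of-ratios scaling in place of the deposited totals it was -0.17 (adjusted p = 0.0398, limma), moved by over 1.5 times with its call kept. Hdac1, on chromosome 4 from 129409895 to 129436631 on the minus strand (ENSMUSG00000028800), encodes a catalytic subunit of the Sin3, NuRD, CoREST and MiDAC complexes.

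Reads of Hdac1 can be shared with processed pseudogenes. Hdac1-ps on chromosome 17 (78799011 to 78800454) was 99.4% identical to Hdac1 over 1444 bases and was listed at 3.36 to 4.67 FPKM in CTR and 2.48 to 4.07 in dKO, with a log2 fold change of -0.26 (adjusted p = 0.0368, limma). Gm4864, with 94.6% identity, held at most 3 fragments in a library. A further copy, Gm5824 (96.3% identity), was not analysed here. When the fragments of Hdac1, Hdac1-ps and Gm4864 were added, CTR libraries held 1674 to 2030 (median 1750) and dKO libraries 1388 to 1585 (median 1478.5). The groups did not overlap, also after division by the library total.

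Hdac2, the closest relative of Hdac1 and a subunit of the same complexes, had the lowest log2 fold change of the family on the log2(FPKM + 1) scale, close to that of Hdac8, which was the lower of the pair with smaller pseudocounts, TPM, voom and several other settings. It held 21.6 to 30.3 FPKM in CTR (median 26.2, mean 26.0 ± 2.90 SD, n = 6) and 14.8 to 19.5 in dKO (median 17.4, mean 17.3 ± 2.20 SD, n = 6). The groups did not overlap. Its mean was 33.5% lower in dKO, with a log2 fold change of -0.56 (SE 0.094, 95% interval -0.77 to -0.36, adjusted p = 0.000296, limma with Benjamini-Hochberg), and 10.2% of all tested genes had a lower value. Hdac2 lies on chromosome 10 from 36850435 to 36877890 on the plus strand (ENSMUSG00000019777).

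The levels of Hdac1 and Hdac2 were close in CTR and apart in dKO. In CTR, Hdac1 was above Hdac2 in 4 of 6 libraries and their ranges overlapped, whereas in dKO it was above in 6 of 6 with no overlap of the ranges. The ratio of Hdac2 to Hdac1 FPKM within a library was 0.835 to 1.05 in CTR (median 0.902) and 0.658 to 0.886 in dKO (median 0.734). The 2 sets of ratios overlapped.

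Hdac3, the catalytic subunit of the NCoR and SMRT complexes, did not pass the test. It held 11.3 to 14.2 FPKM in CTR (median 13.1) and 11.0 to 13.1 in dKO (median 11.5), and the groups overlapped. Its log2 fold change was -0.11 (SE 0.068, 95% interval -0.26 to 0.03, adjusted p = 0.171, limma). The call depended on the processing, since it passed after rescaling to TPM (-0.17, adjusted p = 0.0489, limma) and with array weights (-0.16, adjusted p = 0.0233, limma). Hdac3 is annotated on chromosome 18 from 38068897 to 38088077 on the minus strand (ENSMUSG00000024454).

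Hdac8, which deacetylates the cohesin subunit SMC3, was the class I enzyme with the lowest level. It held 2.57 to 4.06 FPKM in CTR (median 3.44, mean 3.38 ± 0.598 SD, n = 6), from 217 to 336 fragments, and 1.74 to 2.16 FPKM in dKO (median 1.96), from 146 to 175 fragments. All dKO libraries were below all CTR libraries. The mean was 41.5% lower, the largest relative difference of a called member, with a log2 fold change of -0.55 on the log2(FPKM + 1) scale (SE 0.090, 95% interval -0.74 to -0.35, adjusted p = 0.000283, limma with Benjamini-Hochberg). That scale understates the change of low genes, and with a pseudocount of 0.1 the log2 fold change was -0.73. Hdac8 lies on chromosome X from 101328244 to 101549026 on the minus strand (ENSMUSG00000067567).

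**Figure D2:**
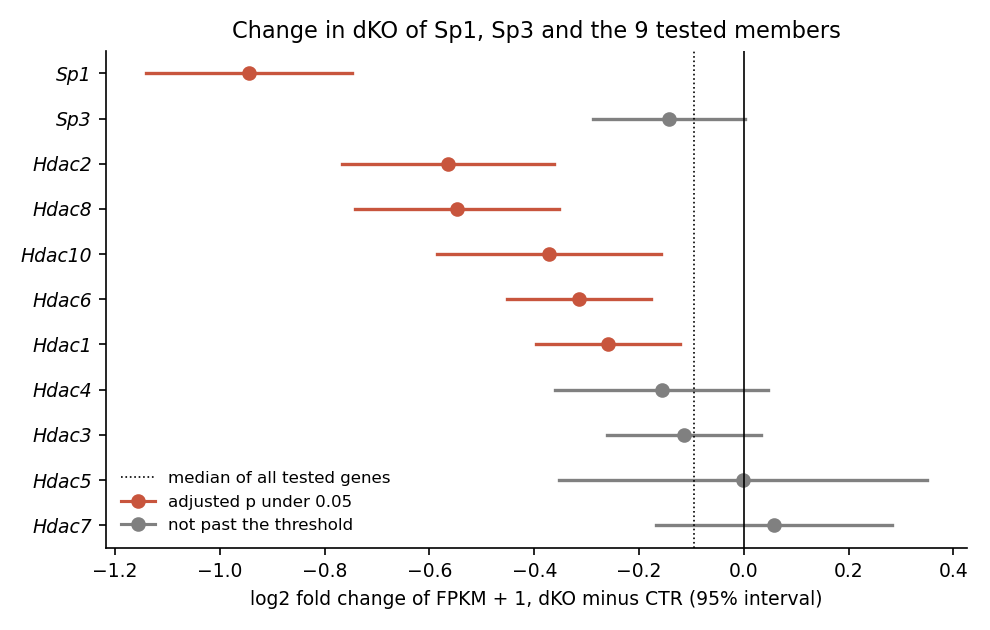
Log2 fold change of FPKM + 1, dKO minus CTR (horizontal axis), for Sp1, Sp3 and the 9 tested deacetylases, with 95% intervals from limma over 6 and 6 libraries and the median of all tested genes as a dotted line at -0.10. The intervals of Hdac2, Hdac8, Hdac10, Hdac6 and Hdac1 lie below 0, and those of Hdac4, Hdac3, Hdac5 and Hdac7 cover it.

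The class IIa enzymes showed no change past the threshold. Hdac7, the family member best known for its part in endothelial cells and vascular integrity, was the highest of the class. It held 10.4 to 16.4 FPKM in CTR (median 14.8) and 12.2 to 15.2 in dKO (median 15.1). The groups overlapped fully, with a log2 fold change of 0.06 (SE 0.104, 95% interval -0.17 to 0.28, adjusted p = 0.659, limma). Hdac7, on chromosome 15 from 97687372 to 97742383 on the minus strand (ENSMUSG00000022475), shares 2396 of its 9933 exonic bases in the GENCODE annotation with Slc48a1 on the opposite strand, a heme transporter gene. The lengths recovered from the deposited FPKM were 6755 bases for Hdac7 and 2690 for Slc48a1. The authors' model of Hdac7 thus differed, and its overlap is not known. Slc48a1 was higher in dKO without overlap of the groups, at 49.4 to 62.1 FPKM in CTR and 84.7 to 102 in dKO (log2 fold change 0.68, adjusted p = 9.96e-06, limma). The strand setting of the count is not given in the sources used here, so reads of any overlap cannot be told apart and the value of Hdac7 is uncertain by an unknown amount.

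On the log2(FPKM + 1) scale, Hdac5 had the largest standard error of the tested members. It held 4.64 to 10.7 FPKM in CTR (median 7.01) and 5.28 to 8.87 in dKO (median 7.42), and the dKO range lay within the CTR range. Its log2 fold change was -0.0013 (SE 0.163, 95% interval -0.35 to 0.35, adjusted p = 0.995, limma), an interval that holds changes as large as that of Hdac1 in either direction. Hdac5, on chromosome 11 from 102085245 to 102121072 on the minus strand (ENSMUSG00000008855), shares 2826 of 9422 exonic bases in the GENCODE annotation with G6pc3 on the opposite strand, whose own log2 fold change was -0.05 (adjusted p = 0.529, limma). The lengths recovered from the FPKM were 8780 bases for Hdac5 and 2226 for G6pc3, the latter under the 2826 shared. The overlap in the authors' gene models is therefore not known.

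Hdac4, whose nuclear export is a well studied response to calcium signals in muscle and bone, held 2.76 to 4.73 FPKM in CTR (median 3.59) and 2.65 to 3.43 in dKO (median 3.22). The groups overlapped. The log2 fold change was -0.16 (SE 0.094, 95% interval -0.36 to 0.05, adjusted p = 0.176, limma), and it passed only when CTR replicate 4, the lowest CTR library, was left out (-0.22, adjusted p = 0.0489, limma). Hdac4 is on chromosome 1 from 91855937 to 92123421 on the minus strand (ENSMUSG00000026313).

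Hdac9 was the lowest of the 10 members. It held 0.133 to 0.271 FPKM in CTR (median 0.205), from 34 to 68 fragments, and 0.171 to 0.396 in dKO (median 0.372), from 45 to 102 fragments. In 5 of the 6 dKO libraries, with 0.305 to 0.396 FPKM, it was above every CTR library, and dKO replicate 4, with 0.171, was not. It reached 1 FPKM in none of the libraries, where the filter asked for 6 of them, and was not part of the test. The exact two-sided permutation test of Hdac9 alone gave an unadjusted p = 0.0152 (smallest p the design allows 0.00216). When all genes were tested its call depended on the pseudocount, with a log2 fold change of 0.15 (adjusted p = 0.0385, limma) at a pseudocount of 1 and 0.51 (adjusted p = 0.0940, limma) at 0.1. Hdac9 is on chromosome 12 from 34097579 to 34967094 on the minus strand (ENSMUSG00000004698).

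Both class IIb enzymes were lower in dKO. Hdac6, a cytoplasmic deacetylase of alpha-tubulin, cortactin and HSP90, held 5.21 to 6.61 FPKM in CTR (median 5.86, mean 5.86 ± 0.564 SD, n = 6) and 4.33 to 4.75 in dKO (median 4.47), with no overlap. Its mean was 23.2% lower, with a log2 fold change of -0.31 (SE 0.063, 95% interval -0.45 to -0.18, adjusted p = 0.00119, limma with Benjamini-Hochberg). Hdac6 lies on chromosome X from 7795684 to 7814404 on the minus strand (ENSMUSG00000031161).

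Hdac10, which removes acetyl groups from polyamines, held 2.10 to 3.32 FPKM in CTR (median 2.62, mean 2.67 ± 0.556 SD, n = 6), from 121 to 196 fragments, and 1.63 to 2.16 in dKO (median 1.78), from 86 to 128 fragments. The ranges of the groups overlapped between 2.10 and 2.16 FPKM, and this was the called member whose groups overlapped. The mean was 32.04% lower, with a log2 fold change of -0.37 (SE 0.099, 95% interval -0.59 to -0.16, adjusted p = 0.00703, limma with Benjamini-Hochberg). Hdac10 lies on chromosome 15 from 89007505 to 89013076 on the minus strand (ENSMUSG00000062906). A long noncoding gene on the opposite strand, Gm62406, shares 158 of the 4142 exonic bases of Hdac10 in the GENCODE annotation, where the length recovered from the FPKM was 3379.

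The order of the levels was the same in both groups, by median FPKM Hdac1, Hdac2, Hdac7, Hdac3, Hdac5, Hdac6, Hdac4, Hdac8, Hdac10 and Hdac9. In CTR the ranges of neighbours overlapped between Hdac1 and Hdac2, Hdac7 and Hdac3, Hdac5 and Hdac6, Hdac4 and Hdac8, and Hdac8 and Hdac10. In dKO they overlapped between Hdac2 and Hdac7, Hdac7 and Hdac3, and Hdac8 and Hdac10. The median of Hdac1 was more than 10 times that of Hdac10 in both groups.

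Summed over the class, class I mRNA lay between 63.6 and 75.2 FPKM in CTR (median 69.8) and between 49.2 and 60.0 in dKO (median 53.3), without overlap. Class IIb lay between 7.32 and 9.89 FPKM in CTR (median 8.65) and between 5.9998 and 6.56 in dKO (median 6.31), also without overlap. Class IIa covered 19.96 to 30.1 FPKM in CTR (median 25.9) and 23.1 to 27.2 in dKO (median 25.4), so that dKO lay within the CTR range. Class IIa made up 19.6% to 29.2% of the family's summed FPKM in CTR (median 24.0%) and 27.0% to 31.3% in dKO (median 29.4%), while all 10 members together summed to 98.2 to 110 FPKM in CTR (median 104) and 78.8 to 93.3 in dKO (median 86.1). These sums are descriptions and were not tested.

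**Figure D3:**
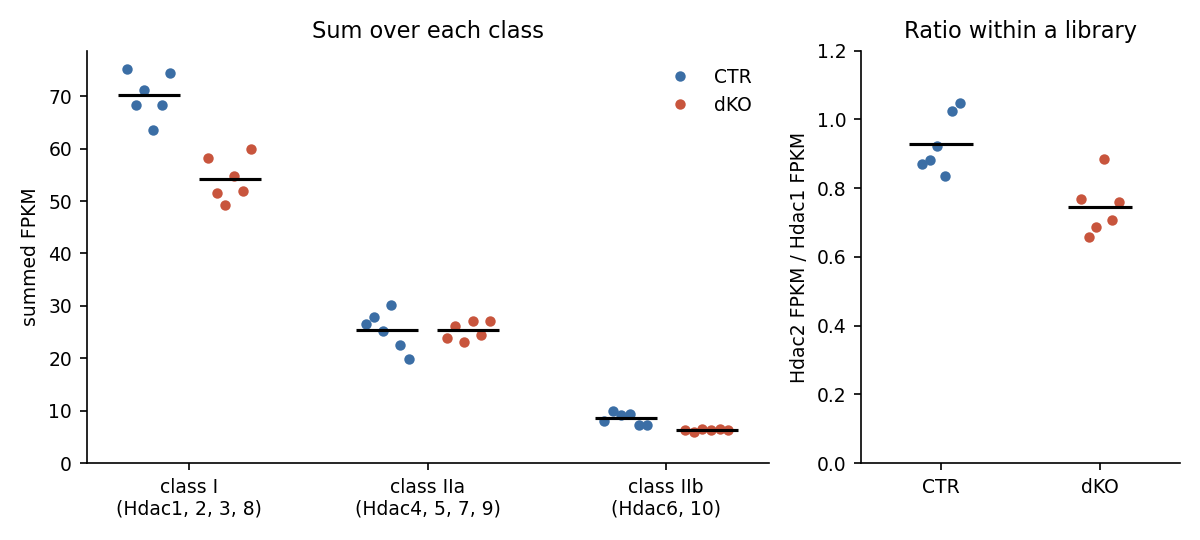
Left, FPKM summed over the members of each class in every library (CTR blue, dKO red), with a black line at the group mean. Right, the ratio of Hdac2 to Hdac1 FPKM in each library. The dKO points lie below the CTR points for class I (49.2 to 60.0 against 63.6 to 75.2) and class IIb, they lie within the CTR range for class IIa, and the ratios of the groups overlap.

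Genes whose proteins work with, oppose or resemble the family were counted next. The 14 lists held partners, kinases, opposing enzymes, acetyl-lysine readers, substrates of the family and genes around them, and also Hdac11 with the sirtuins. Of their 124 genes 114 passed the filter, and 48 of these (42.1%) were lower and 8 (7.02%) higher in dKO. Their median log2 fold change was -0.17, where over all tested genes 32.6% were lower, 20.4% were higher and the median was -0.10. The lists were chosen with earlier results of these data known, so these shares are a description. In CoREST, the complex that joins HDAC1 and HDAC2 to a histone demethylase, 7 of 9 tested genes were lower and none higher. They included the demethylase gene Kdm1a (-0.37, adjusted p = 0.000115), Rcor2 (-0.62, 0.000408) and Zmym3 (-0.40, 0.000899), all from limma with Benjamini-Hochberg adjustment. Rcor2 was at 0.545 to 0.945 FPKM in dKO and passed the filter through its CTR libraries alone, so the filter favoured its direction. Kdm1a fell from 16.2 to 18.3 FPKM in CTR to 12.2 to 13.99 in dKO without overlap. In NuRD, which couples deacetylation to nucleosome remodelling, 5 of 10 were lower and none higher. Mta1, a scaffold that binds HDAC1, held 28.7 to 42.7 FPKM in CTR and 21.3 to 25.7 in dKO (log2 fold change -0.63, adjusted p = 0.000117, limma), and the groups did not overlap. Gatad2b (-0.36), Mta3 (-0.32) and the remodelling enzyme Chd3 (-0.32) also fell.

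The counts that follow stand beside 32.6% of all tested genes lower and 20.4% higher. In MiDAC, a deacetylase complex built on a scaffold and DNTTIP1, both genes were lower, Mideas by -0.72 (adjusted p = 0.000305) and Dnttip1 by -0.38 (adjusted p = 0.0096) on the log2 scale (limma). In the NCoR and SMRT complex, 3 of 5 were lower, namely Tbl1x (-0.47), Ncor1 (-0.48) and Tbl1xr1 (-0.49), while Gps2 had a log2 fold change of -0.17 (adjusted p = 0.0662, limma). The scaffold Ncor1 held 20.1 to 23.5 FPKM in CTR and 12.9 to 17.8 in dKO, with no overlap, beside its catalytic partner Hdac3, which did not pass the test. The Sin3 complex was mixed, with 4 of 15 lower and 1 higher. Brms1l (-0.60), the histone binding Rbbp7 (-0.44) and Ing2 (-0.25) fell, and the scaffold Sin3b rose, from 10.7 to 12.1 FPKM in CTR to 12.8 to 18.002 in dKO (log2 fold change 0.32, adjusted p = 0.00468, limma).

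Genes around the class IIa enzymes moved both ways, as did all tested genes, with 32.6% lower and 20.4% higher. Of 3 tested MEF2 genes only Mef2d was lower (-0.26, adjusted p = 0.0112, limma), and the log2 fold changes of Mef2c and Mef2a were both -0.01. Of the 7 genes for 14-3-3 proteins, which hold phosphorylated class IIa enzymes in the cytoplasm, 2 were lower, Ywhag (-0.30) and Ywhae (-0.26), and 1 was higher, Sfn (0.62, adjusted p = 0.033, limma). Among 12 kinase genes 4 were lower and 3 higher. Sik1, whose kinase phosphorylates class IIa enzymes, rose from 11.6 to 19.3 FPKM in CTR to 19.7 to 24.5 in dKO without overlap (log2 fold change 0.52, adjusted p = 0.00119, limma). Stk11, which activates the SIK kinases, rose as well (0.26, adjusted p = 0.00607), and Camk2g (-0.29) and Prkd3 (-0.32) fell.

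Genes of the substrates and genes around them were read in the same way. Of 12 cohesin genes, the complex whose SMC3 subunit Hdac8 deacetylates, 7 were lower and none higher. Over all tested genes 32.6% were lower, 20.4% were higher, and 16.1% had each dKO library below each CTR library. Smc1a held 24.6 to 29.8 FPKM in CTR and 16.9 to 19.5 in dKO (log2 fold change -0.51, adjusted p = 3.51e-05, limma), and Pds5b (-0.56), Rad21 (-0.46) and Pds5a (-0.38) fell too, each without overlap of the groups. Of 8 genes of tubulin acetylation, 1 was lower and 1 higher, the Hdac6 substrate gene Hsp90ab1 (-0.29) and Tuba1a (0.67). The tubulin acetyltransferase Atat1, which opposes Hdac6, held 0.986 to 1.48 FPKM in CTR and 0.913 to 1.17 in dKO (log2 fold change -0.17, adjusted p = 0.0766, limma). Of 11 genes of polyamine metabolism 2 were lower and 1 was higher. Sat1, whose enzyme acetylates polyamines, rose (0.41, adjusted p = 0.005, limma), and Sat2 (-0.44) and Amd1 (-0.35) fell.

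On the opposing side, 5 of 10 acetyltransferase genes were lower and none higher, among them Kat2a (-0.54), Kat7 (-0.37), Kat5 (-0.25) and Kat8 (-0.16). The shares over all tested genes were 32.6% lower and 20.4% higher. Of the BET genes, whose proteins read acetylated lysines, Brd3 was lower (-0.20), and Brd2 had a log2 fold change of 0.14 (adjusted p = 0.283, limma). Among the deacetylases outside the 10 members, Sirt1 (-0.47), Sirt3 (-0.46) and Sirt4 (-0.62) fell and Sirt2 rose (0.40), while Sirt5 (-0.09), Sirt6 (-0.06) and Sirt7 (0.20) did not pass. Hdac11, the class IV enzyme, was under the filter at 0.733 to 1.41 FPKM in CTR and 0.562 to 0.941 in dKO (exact two-sided permutation p = 0.281).

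**Figure D4:**
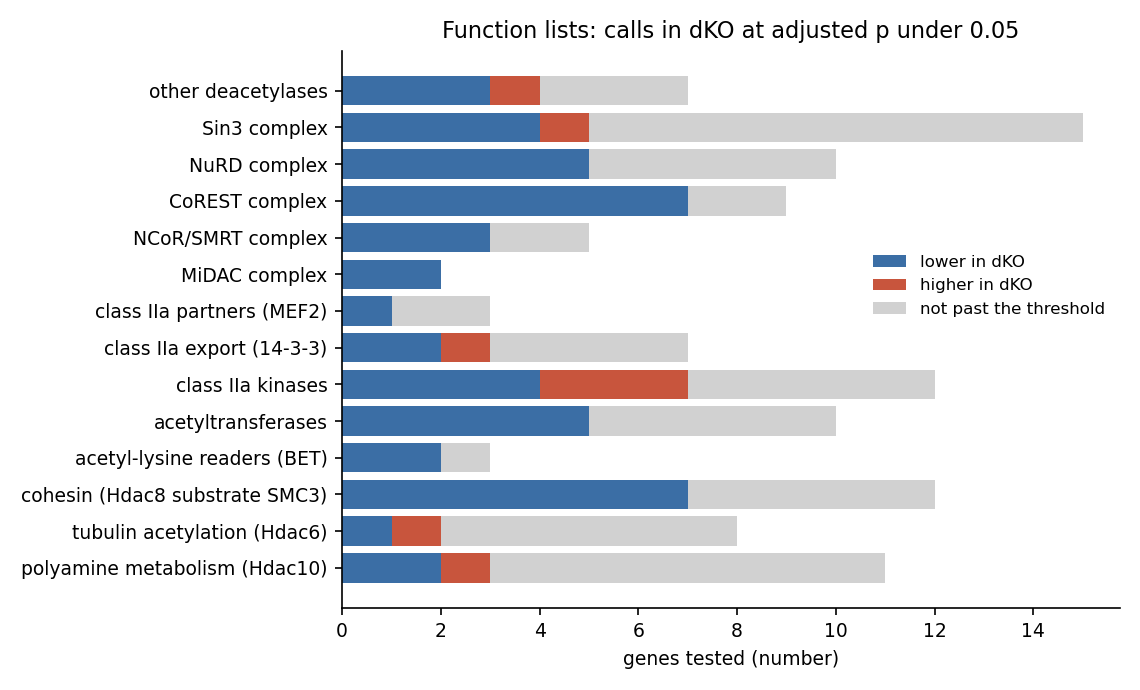
Number of tested genes in each of the 14 function lists (horizontal axis), split into those lower in dKO (blue), those higher (red) and those not past an adjusted p under 0.05 (grey), from limma over 6 and 6 libraries. CoREST (7 of 9) and cohesin (7 of 12) hold 7 lower genes each, and the kinases of class IIa hold the most higher genes, 3 of 12. Over all tested genes 32.6% were lower and 20.4% higher.

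Across the 12 libraries, deviations from the group means were compared between genes as a description of which levels varied together. Libraries share their preparation and depth, and genes are not independent replicates. The genes most like Hdac1 were Rpsa-ps10 (Pearson r = 0.97 over 12 libraries), Tmsb10 (0.96) and Ccdc124 (0.96), of which Tmsb10 was higher in dKO (log2 fold change 0.83, adjusted p = 4.94e-05, limma). Those most like Hdac2 were Matr3 (0.94), Ube2j2 (0.93) and Gm10110 (0.92). Within the family, the highest value was that of Hdac3 and Hdac7 (0.77), Hdac1 and Hdac2 had 0.57, and the lowest was that of Hdac4 and Hdac5 (-0.80), which was -0.98 over the CTR libraries and -0.29 over the dKO libraries. Among the CTR libraries, replicate 4 had the highest Hdac5 (10.7 FPKM) and the lowest Hdac4 (2.76), and replicate 6 had the lowest Hdac5 (4.64) and the highest Hdac4 (4.73).

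**Figure D5:**
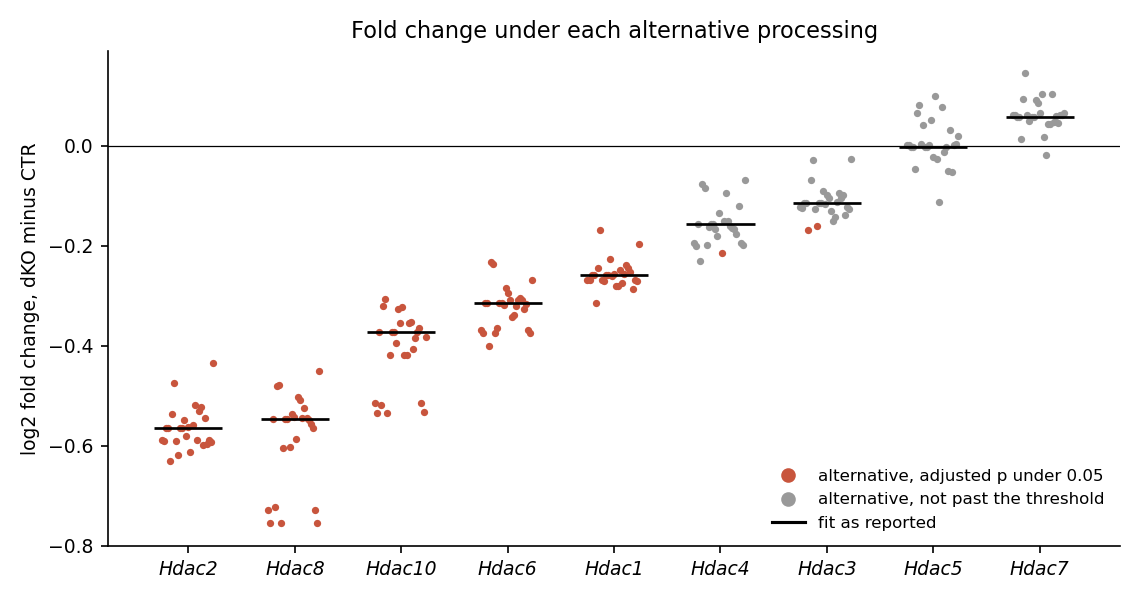
Log2 fold change of each tested member (vertical axis) under 26 other ways of processing or leaving out a library, red where the adjusted p was under 0.05 and grey where it was not, with a black line at the value reported. Every value of Hdac2, Hdac8, Hdac10, Hdac6 and Hdac1 is red and below 0, Hdac4 and Hdac3 pass in 1 and 2 settings, and the values of Hdac5 fall on both sides of 0.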

How the data were processed

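RNA-seq libraries of MLECs from CTR and dKO mice (6 each) were used. Per the study's methods, the authors used Trimmomatic for trimming and STAR for alignment to mm39, kept unique alignments through sambamba and a further alignment, and compared the groups with DESeq2. Per the labels, the submitters' processing notes name Bowtie2 2.2.3, HISAT2 2.1.0, TopHat2 and DESeq2, and the label protocol speaks of retinas. The counting program, annotation and strand setting are not given in the sources used here. The values analysed are FPKM as the authors deposited them, with no columns of comparisons. The knockout columns are named after tamoxifen, which both groups received, and were matched to dKO by elimination, since the other columns are named CTR.

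Of 28689 genes, 27706 matched the GENCODE annotation of GRCm39 by identifier and all 10 members matched. Fragments per gene were recovered from the deposited FPKM by searching whole library totals and whole gene lengths from 20 to 150000 bases, and 100% of genes came out whole within 0.0001 fragments and rounding. They served for depth and alternatives. Within groups the 30 pairs of libraries differed by a chi-square per degree of freedom of at least 14.2, so no library repeated another.

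The test covered the 12467 genes that reached 1 FPKM in 6 or more libraries. It was run on log2(FPKM + 1), computed here from the deposited FPKM, with limma 3.58.1 in R 4.3.3 (lmFit, eBayes with trend, no covariate, Benjamini-Hochberg), since FPKM are not counts. Fold changes on this scale understate those of low genes. Exact permutation tests (two-sided) ran over every split of the libraries. Alternatives were other pseudocounts, filters, scalings, voom on recovered fragments, array weights, a replicate block, an exact test and leaving out each library. Copies of members were searched with BLAST 2.17.0 (at least 90% identity over 150 bases). Promoters came from the GRCm39 genome and figures from Matplotlib 3.10.9.

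All members, Sp1, Sp3, Hdac11 and the sirtuins were named, and from each other function list up to 4 tested genes with the lowest limma p, with marker lists summarised. Some genes that this rule picks are not reported here. The 3 genes most like Hdac1 and most like the member with the largest absolute log2 fold change in the reported fit were named by Pearson r. Same-numbered CTR and dKO libraries did not deviate together throughout (correlations -0.108 to 0.565), so the numbers were not taken as pairs. The members and lists were chosen with earlier results of these data known.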

Additional observations from a re-analysis of the deposited data

Results flagged for a closer look

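In 40 groups of 6 libraries (10 members, Sp1, Sp3, Hdac11 and the sirtuins, in CTR and in dKO), 3 had a library whose distance from its neighbour was past the 95% limit of Dixon's ratio for 6 samples. Chance gives about 1 in 20, or 2 of 40. Hdac7 was 12.2 FPKM in dKO replicate 3, where the other dKO libraries held 14.4 to 15.2. In CTR replicate 4, Hdac11 was 1.41 FPKM (the others 0.733 to 0.969) and Sirt7 was 7.28 FPKM (the others 5.40 to 5.90).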

How the results depend on the processing

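Under 26 alternatives, 3 of them chosen after seeing the data, the log2 fold changes of Hdac1 (-0.31 to -0.17), Hdac2 (-0.63 to -0.43), Hdac6 (-0.40 to -0.23), Hdac8 (-0.76 to -0.45) and Hdac10 (-0.54 to -0.31) stayed lower and past the threshold wherever they were tested, as did Sp1 (-1.04 to -0.80). A filter of at least 5 FPKM left 6 members, without Hdac8, Hdac10 and Hdac4, of which 3 were called, and 4222 of 7891 genes. All other alternatives called 5 or 6 members. Leaving out a library gave 5 to 6 members and 5858 to 6841 genes. Median-of-ratios scaling called 6225 genes, 3213 of them higher, where the reported fit called 2549 of 6614 higher. Hdac3 passed with TPM (-0.17) and array weights (-0.16), and Sp3 with TPM (-0.20) and array weights (-0.15). With trends on gene length and GC content removed Sp3 was 0.0265. Leaving out a library gave -0.215 to -0.0940 for Hdac4, -0.0183 to 0.104 for Hdac7 (below 0 without CTR replicate 6), -0.11 to 0.10 for Hdac5 (above 0 without CTR replicates 1, 2 or 4 or dKO replicates 1 or 5) and -0.18 to -0.11 for Sp3 (past the threshold without CTR replicate 6). Hdac5, never past the threshold, was above 0 with a pseudocount of 0.1 (0.0013, with or without the filter) or 0.01 (0.0017), quantile normalization (0.0656), median-of-ratios scaling (0.0815), voom (0.0031, or 0.0037 on all genes), array weights (0.0425) and the removed trends (0.0192). Hdac9, tested only where all genes were, was 0.15 (adjusted p = 0.0385) without the filter, 0.69 (adjusted p = 0.0417) with voom on all genes and 0.51 (adjusted p = 0.0940) with a pseudocount of 0.1 and limma. The causes were not tested. A fit with the replicate block called 5 members and 6955 genes, and CTR libraries matched best with their own number in 2 of 6 cases. Counts limited Hdac9 (34 to 102 fragments) and Hdac10 (86 to 196) most.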
